A study of Mus musculus with 6 samples.

Results

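The non-Hox homeobox genes described here encode 63 transcription factors of 9 families: LIM (Lhx), NK (Nkx), distal-less (Dlx), sine oculis (such as Six2), Iroquois (Irx), Msx, Pitx, Otx and POU (Pou). They were picked out of 21779 protein-coding genes by a rule on the symbol alone. All 63 could be placed on the map. By family there were 8 Lhx, 14 Nkx, 6 Dlx, 6 sine oculis, 6 Irx, 3 Msx, 3 Pitx, 2 Otx and 15 Pou genes.

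Homeodomain proteins bind DNA through a conserved helical fold and set the identity of regions, organs and cell types in the embryo. LIM, POU and many NK factors specify neurons, Otx and sine oculis factors the forebrain and eye, Dlx and Msx factors the limbs and face, and Pitx factors the pituitary and left-right asymmetry. Most have no known role in blood. Their genes are rich in CpG islands, and in cell types that do not use them they are classic targets of Polycomb repression, some of them with activating marks at the start as well. That is background: the marks behind the map used here are not given.

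The series profiled histone variant H3.3, which marks active and poised chromatin, by ChIP-seq in hematopoietic stem cells (HSCs) from bone marrow of adult C57BL/6 mice. Its 6 libraries were 2 H3.3 ChIP libraries of wild-type (WT) cells, 2 of HIRA KO cells, and 1 input of each genotype. HIRA is the chaperone that places H3.3 outside DNA replication, and poly(I:C), which triggers interferon, was injected to delete its gene in blood cells (20 ug each time, 2 injections). HSCs were collected on day 7 from the first injection. The labels give this protocol for WT libraries too, while neither the Cre line nor the age of the mice is stated. What could be analysed was 1 segmentation of mm10, in which each 200 bp bin carries 1 of 18 chromatin states and only the file name ties it to WT HSC H3.3. It has no replicate and no KO column, so depth is unknown, no test across samples could be made, and WT against HIRA KO was not analysed here. Every share below is a description of this 1 map.

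States carry numbers and no names. States 3 to 6 lay at the starts of 50.3% of protein-coding genes, and state 18 covered 55.0% of the map. States 9, 10 and 11, which hold most of the homeobox genes, covered 0.182%, 0.308% and 13% of it. Marker genes of cell types were counted as well. Their lists were chosen with earlier results of these data known, so this is no independent check of the cell label. Of the HSC markers, 12 of 12 had an end in states 3 to 6, beside 47.6% of all genes. Of 31 markers of other cell types, 2 did (Ebf1 and Itga2b). An end in states 9 to 11 was found for 0 of the 12 HSC markers and 11 of the 31 others (35.5%), beside 23.9% of all genes. By list these were 5 of 6 for stroma and endothelium, 3 of 5 for T and NK cells, 2 of 5 for B cells, 1 of 5 for neutrophils and monocytes, 0 of 6 erythroid and 0 of 4 megakaryocyte markers.

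Sequences just upstream of the start are given for 6 members as examples from 4 states, chosen to show starts that differ in CpG content. They are the 250 bases before the annotated start (RefSeq, GRCm38.p6), 5′ to 3′, with every CpG in capitals. Nkx6-1 (a factor of pancreatic beta cells and motor neurons) and Dlx2 (forebrain interneurons and face) began in state 9, Pou5f1 (the pluripotency factor Oct4) in state 11, Pou1f1 (the pituitary factor Pit-1) in state 18, and Nkx2-3 and Pou2f1 in state 6.
Nkx6-1, chr5:101664712-101664961, minus strand: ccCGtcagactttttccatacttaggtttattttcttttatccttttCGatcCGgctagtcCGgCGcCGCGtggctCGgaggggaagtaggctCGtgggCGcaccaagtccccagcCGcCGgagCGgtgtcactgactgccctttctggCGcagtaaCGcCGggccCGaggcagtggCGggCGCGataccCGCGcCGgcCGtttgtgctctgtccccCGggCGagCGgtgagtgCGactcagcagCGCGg
Dlx2, chr2:71546755-71547004, minus strand: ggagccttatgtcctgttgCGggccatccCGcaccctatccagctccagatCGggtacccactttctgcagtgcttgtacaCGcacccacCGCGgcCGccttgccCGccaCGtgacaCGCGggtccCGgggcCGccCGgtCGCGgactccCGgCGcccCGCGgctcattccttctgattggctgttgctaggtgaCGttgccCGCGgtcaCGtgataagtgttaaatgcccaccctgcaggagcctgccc
Pou5f1, chr17:35505782-35506031, plus strand: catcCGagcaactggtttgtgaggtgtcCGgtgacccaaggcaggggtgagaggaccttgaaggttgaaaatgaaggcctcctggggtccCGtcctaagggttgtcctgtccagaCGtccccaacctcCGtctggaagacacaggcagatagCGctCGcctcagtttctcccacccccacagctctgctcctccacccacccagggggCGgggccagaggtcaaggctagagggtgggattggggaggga
Pou1f1, chr16:65520262-65520511, plus strand: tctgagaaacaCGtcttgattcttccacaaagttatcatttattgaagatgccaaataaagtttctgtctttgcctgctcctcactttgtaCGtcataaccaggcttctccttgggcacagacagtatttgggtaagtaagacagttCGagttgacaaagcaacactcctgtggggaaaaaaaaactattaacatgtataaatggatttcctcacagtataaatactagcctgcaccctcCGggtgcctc
Nkx2-3, chr19:43612075-43612324, plus strand: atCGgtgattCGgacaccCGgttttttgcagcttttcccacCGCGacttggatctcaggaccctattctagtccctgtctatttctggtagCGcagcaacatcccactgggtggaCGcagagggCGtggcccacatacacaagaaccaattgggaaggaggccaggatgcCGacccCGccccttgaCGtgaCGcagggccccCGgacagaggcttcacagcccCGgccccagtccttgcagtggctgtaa
Pou2f1, chr1:166002635-166002884, minus strand: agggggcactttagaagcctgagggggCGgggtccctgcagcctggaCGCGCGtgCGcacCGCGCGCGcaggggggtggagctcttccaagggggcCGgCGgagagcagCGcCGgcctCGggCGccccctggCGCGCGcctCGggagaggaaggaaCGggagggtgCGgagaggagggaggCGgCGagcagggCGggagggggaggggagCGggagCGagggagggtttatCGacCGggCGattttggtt
In these 250 bases Nkx6-1 held 30 CpG, Pou2f1 29 and Dlx2 24, whereas Nkx2-3 held 14, Pou5f1 8 and Pou1f1 4.

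Most homeobox genes lay deep inside long stretches of states 9 to 11. An end of the gene record was in these states for 56 of 63 members (88.9%), beside 23.9% of all protein-coding genes. Both ends were there for 49 members (77.8%), beside 7.56% of all genes. Only Nkx2-3, Six5, Pou2f1 and Pou6f1 had an end in states 3 to 6 (6.35% of members, beside 47.6% of all genes). Pou1f1 alone had both ends in state 18 (1.59%, beside 13.6%).

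With 10 kb added on each side of the gene, the median share of bases in states 9 to 11 was 86.6% (quartiles 64.8 and 100%), beside a median of 0.965% over all genes. The whole window was in these states for 19 members (30.2%), beside 0.579% of all genes. These 19 included Irx1, Irx2, Irx3, Irx4 and Irx6, both Dlx5 and Dlx6, the cardiac factor gene Nkx2-5, and Pou3f2 and Pou3f3, which act in cortical neurons. Pooled over all windows without double counting, 2346.8 kb in all, state 11 made up 50.1% of bases, state 10 7.75%, state 9 4.18% and state 18 20.2%. States 9 and 10 were thus 22.9 and 25.2 times their share of the map, and state 11 was 3.85 times its share. States 3 to 6 made up 1.77% of window bases beside 1.13% of the map, 1.56 times their share. These ratios set gene windows against the whole map, not against the windows of all genes. State 9 was present in the window of 42 members (66.7%, beside 16.1% of all genes) and state 10 in that of 53 (84.1%, beside 22%). State 15 made up 0.213% of window bases beside 4.56% of the map, state 14 0.0937% beside 0.923%, and state 12 was absent beside 0.220% of the map.

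**Figure D1:**
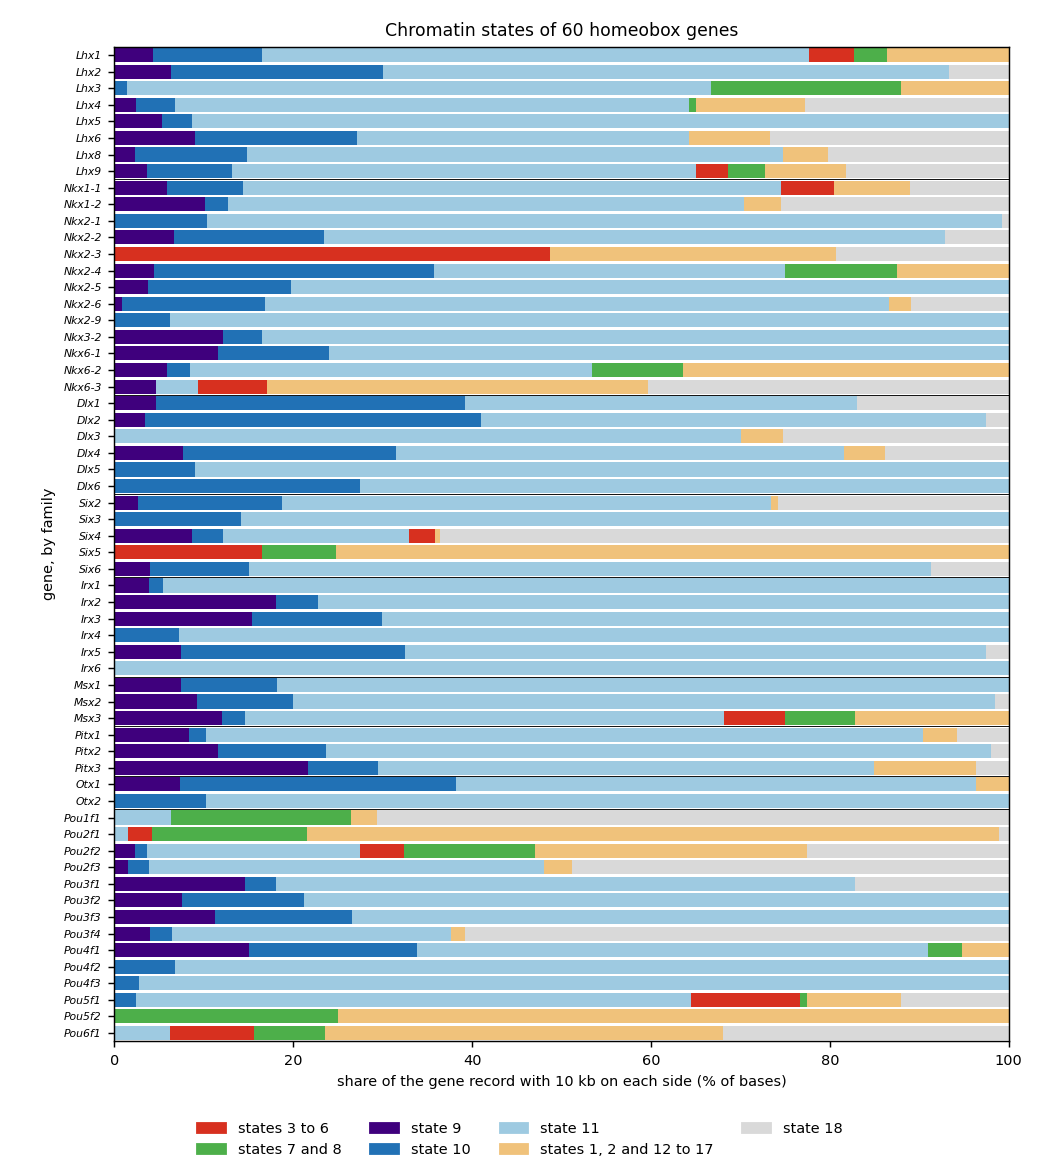
Share of bases (%) in each class of chromatin state over the gene record with 10 kb on each side, for 60 of the 63 homeobox genes by family, with lines between families. Blue and purple bars (states 9 to 11) fill most rows (median over all 63 members 86.6%), while Nkx2-3 and Six5 carry the longest red bars (states 3 to 6, 48.7% and 16.5%).

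The stretches were long. A run is here an unbroken row of bins in states 9, 10 or 11, and the longest run touching a gene had a median of 30 kb over the 63 members (quartiles 19.6 and 39.5 kb, highest 71.4 kb). A run of at least 10 kb touched 55 members (87.3%), beside 9.86% of all genes. At least 20 kb was reached by 47 members (74.6%), beside 3.74% of all genes, at least 30 kb by 33 (52.4%), beside 1.95%, and at least 40 kb by 16 (25.4%), beside 1.07%. Nkx2-3, Nkx6-3, Six5 and Pou5f2 were touched by no run, as were 65.5% of all genes. For 45 members (71.4%, beside 4.53% of all genes) the whole gene record lay within 1 run. The members are short, with a median of 5.85 kb beside 17.2 kb, so short genes were also counted apart. Among genes of at most 30 kb the shares were 44 of 57 members (77.2%) and 6.84% of all such genes.

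The runs reached well past the genes. At the 90 ends of the 45 enclosed members, the run went on for a median of 14.3 kb, from 0.751 kb at Lhx3 to 42.8 kb at Dlx5. It passed both ends by at least 5 kb for 36 of the 45. No such values are given for all 987 protein-coding genes enclosed in a run, so the overhang is not read as particular to members. The 59 members with a run occupied 57 separate runs, and 50 of these touched no protein-coding gene other than members. The matching share over runs that touch any protein-coding gene is not given, so this is not read as particular to members. Outside the run lay state 18 at 89 of 114 edges (78.1%), beside 85.2% of the edges of all runs of 10 kb or more. The sets are not quite alike, since the 114 edges include those of shorter runs, at Pou3f4, Pou6f1, Pou2f1 and Pou1f1. State 13 lay at 6 edges (5.26%, beside 0.854%), 3 of them at Lhx3, Lhx5 and Lhx9.

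The 5 longest runs lay over genes of limb, face and forebrain patterning and over Irx2. First came the 71.4 kb run over Dlx5 and Dlx6 (chromosome 6, 6835001 to 6906400), a linked pair that patterns the lower jaw and limb. Pou3f3, a factor of upper-layer cortical neurons, followed with 64.4 kb and Irx2 with 54.6 kb. Lhx2, required for eye and forebrain, lay in 52.8 kb, and Msx1, a tooth and palate factor, in 52.2 kb. Among all 101627 runs of the map these ranked 43, 57, 98, 111 and 113 by length. The longest run of all, 184.8 kb, lay over HoxC. Runs of at least 20 kb numbered 1165, of which 45 touched a member.

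**Figure D2:**
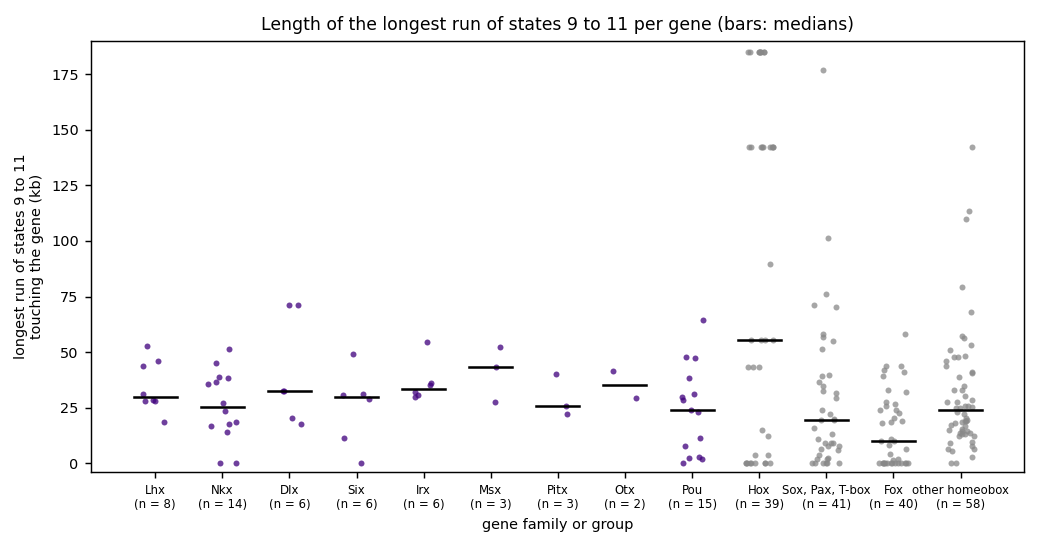
Length (kb) of the longest run of states 9 to 11 touching each gene. Each dot is 1 gene, black bars are medians, purple dots are the 9 homeobox families and grey dots are Hox, Sox, Pax and T-box, Fox and other homeobox genes. Family medians lie between 24.2 kb (Pou) and 43.2 kb (Msx), and the 4 members without a run are at 0.

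Family by family, the Iroquois genes were the most evenly covered. Irx genes form clusters that pattern heart, limb and neural tube. All 6 lay whole within a run, of 30 to 54.6 kb, with a median of 100% of the window in states 9 to 11. Irx1 was 852.8 kb and Irx2 693.4 kb from the nearest bin of states 3 to 6. Irx6 lay in a 32 kb run of state 11 alone, whereas state 9 made up 18.1% of the Irx2 window and 15.4% of the Irx3 window.

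All 6 Dlx, 3 Msx, 3 Pitx and 2 Otx genes were likewise enclosed whole. Among Dlx genes, Dlx1 and Dlx2 shared a 32.6 kb run in which state 10 made up 39.3% of bases, the highest share of any member's run. Dlx3, which acts in hair and bone, lay instead in 17.8 kb of state 11 alone. Its neighbour Dlx4 had a separate run of 20.4 kb with 30.4% in state 10. Pitx3, needed for the lens and for midbrain dopamine neurons, had the highest share of state 9 in its run (28.1%), in 4 segments within the window. That run also touched Elovl3 and Gbf1, and Elovl3 overlaps Pitx3, so its states cannot be assigned to either gene.

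Of the 8 Lhx genes, 5 lay whole within a run, and each of the 8 had an end in states 9 to 11. The runs ranged from 18.8 kb at Lhx3, a pituitary and motor neuron factor, to 52.8 kb at Lhx2. The longest runs of Lhx4, Lhx6 and Lhx8 stopped short of 1 end of the record. Lhx4 and Lhx6 had state 18 at that end. Lhx1, which acts in the kidney and head organizer, and Lhx9, which acts in the gonad, had states 3 to 6 within 10 kb. Those blocks were 1.4 and 1.6 kb long and held an end of the neighbouring genes Aatf and 2310009B15Rik.

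Among the 14 Nkx genes, 12 had an end in states 9 to 11 and 10 lay whole within a run. The longest run among those 12, 51.6 kb, lay over Nkx2-5. Nkx2-1 (thyroid, lung and forebrain) lay in 39.0 kb and Nkx2-9 in 45.2 kb, neither with any state 9. Nkx6-2 had ends in states 13 and 11 and overlaps Inpp5a. Nkx6-3, which acts in the stomach, had ends in states 18 and 17 and lies 2.77 kb from Ank1. A 1.4 kb block of states 3 to 6 lay within Nkx6-3 and held the end of no gene record.

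The sine oculis genes were mixed. Of the 6, 5 had an end in states 9 to 11. The longest run was 31.4 kb at Six2, 49 kb at Six3, 11.4 kb at Six4 and 28.8 kb at Six6. These factors direct muscle, kidney, forebrain and eye. Six4 overlaps Mnat1, and 63.6% of its window was in state 18. Six5 was the 1 member of the family without any run.

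The POU family was the most divided, with 11 of 15 having an end in states 9 to 11 and 7 enclosed whole. The neural genes Pou3f1, Pou3f2, Pou3f3, Pou4f1, Pou4f2 and Pou4f3 lay whole within runs of 23.2 to 64.4 kb, and so did Pou5f1 with 28.6 kb. Pou3f4 on chromosome X had a run of 8.0 kb around its start with state 18 at its other end. Pou2f3, a factor of tuft cells and epidermis, had both ends in state 11, with 48.8% of its window in state 18 and 48.0% in states 9 to 11.

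Neighbouring members rarely shared a run. Of 9 pairs of adjacent members within 100 kb, only Dlx1 with Dlx2 and Dlx6 with Dlx5 lay in 1 run. Dlx3 and Dlx4, 15.2 kb apart, were parted by 4.4 kb. Between Six3 and Six2, 79.9% of the 36.5 kb was in states 9 to 11 and 20.1% in state 18. Neither of these gaps held states 3 to 6.

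Among states 9 to 11, state 9 was the most frequent at the listed starts of members. An outermost start was listed in the RefSeq promoter table for 44 of the 63 members. Of these 44 starts, 22 (50%) lay in state 9, beside 7.8% of 17492 genes with a start. A further 14 (31.8%) lay in state 11, beside 10.1%, and 1 (Otx2) in state 10, which held 0.526% of all starts. The 22 in state 9 were Dlx1, Dlx2, Irx2, Irx3, Lhx2, Lhx4, Lhx6, Msx1, Msx2, Msx3, Nkx1-2, Nkx2-2, Nkx2-4, Nkx3-2, Nkx6-1, Pitx3, Pou3f2, Pou3f3, Pou3f4, Pou4f1, Six2 and Six4. The state 9 segment over these starts was short, with a median of 1.6 kb and a range from 0.8 kb at Dlx2 to 3 kb at Nkx6-1 and Six4. In 14 of the 22 the same run held at least 1 more state 9 segment. For Dlx1 and Dlx2, which share a run, that segment is the one over the other gene's start. For Nkx2-2 it lay at the 5′ end of the record, upstream of the listed start. The same count over all genes starting in state 9 is not given, so it is not read as particular to members. Some listed starts lay inside the gene record, away from its 5′ end, such as those of Lhx4, Lhx9, Nkx2-2 and Six3. The Lhx9 start was in state 11, while the 5′ end of its record was in state 9. Values at the start thus describe the listed starts only.

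State 10 was rare at the start itself and more frequent on both sides of it. Over the 44 starts, state 9 peaked at the start itself and fell to 9.09% of genes at 1 kb upstream and 18.2% at 1 kb downstream. State 10 was at 2.27% at the start and peaked at 27.3% at 1.8 kb upstream, with 25% also at 2.2, 6.4 and 6.8 kb downstream. Over all genes with a start, state 10 likewise went from 0.526% at the start to a peak of 1.99%, at 1.2 kb upstream. State 11 was lowest at 0.2 kb on either side of the start (29.5%) and highest, at 75%, 3.2 kb upstream. Together states 9 to 11 held 84.1% of starts and still 54.5% of positions 15 kb upstream and 59.1% at 15 kb downstream. Over all genes with a start the corresponding values were 18.4%, 11.5% and 10.4%. States 3 to 6, at 50.3% of all starts, were at 11.4% of member starts.

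**Figure D3:**
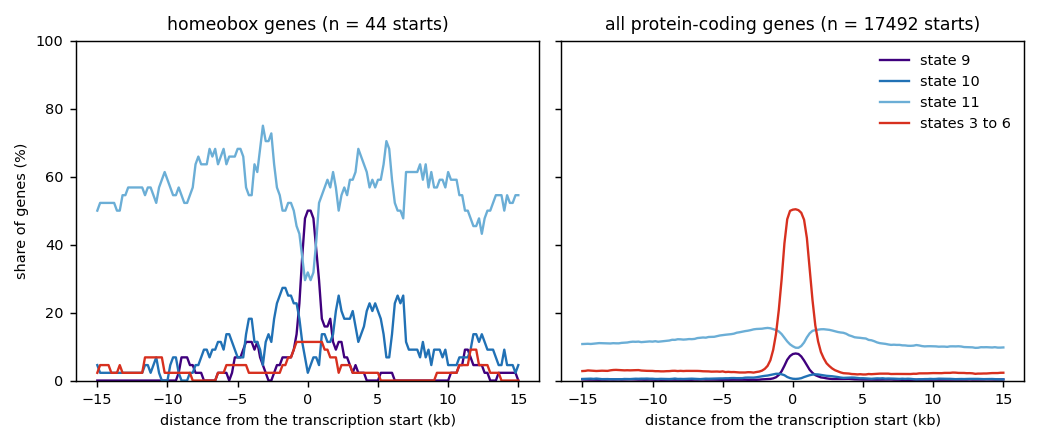
Share of genes (%) in state 9, state 10, state 11 and states 3 to 6 by distance (kb) from the outermost start, for 44 homeobox genes (left) and 17492 protein-coding genes (right). In the homeobox genes state 9 peaks at 50% on the start and state 10 at 27.3% upstream of it, while over all genes states 3 to 6 hold 50.3% of starts.

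Some enclosed genes had no state 9 at all. Of the 15 members starting in state 10 or 11, 8 had none in their run: Irx4, Lhx3, Nkx2-1, Nkx2-9, Otx2, Pou4f2, Pou5f1 and Six3. Over all 59 members with a run, 21 had a run without state 9. Pou4f2, a factor of retinal ganglion cells, lay 1620.6 kb from the nearest state 9. Otx2, which specifies forebrain and midbrain, lay 545.0 kb from it. In Lhx1, Lhx8, Lhx9, Nkx1-1, Nkx6-2, Nkx2-5 and Six6 state 9 lay beside the start, at 0.8 to 8.2 kb.

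**Figure D4:**
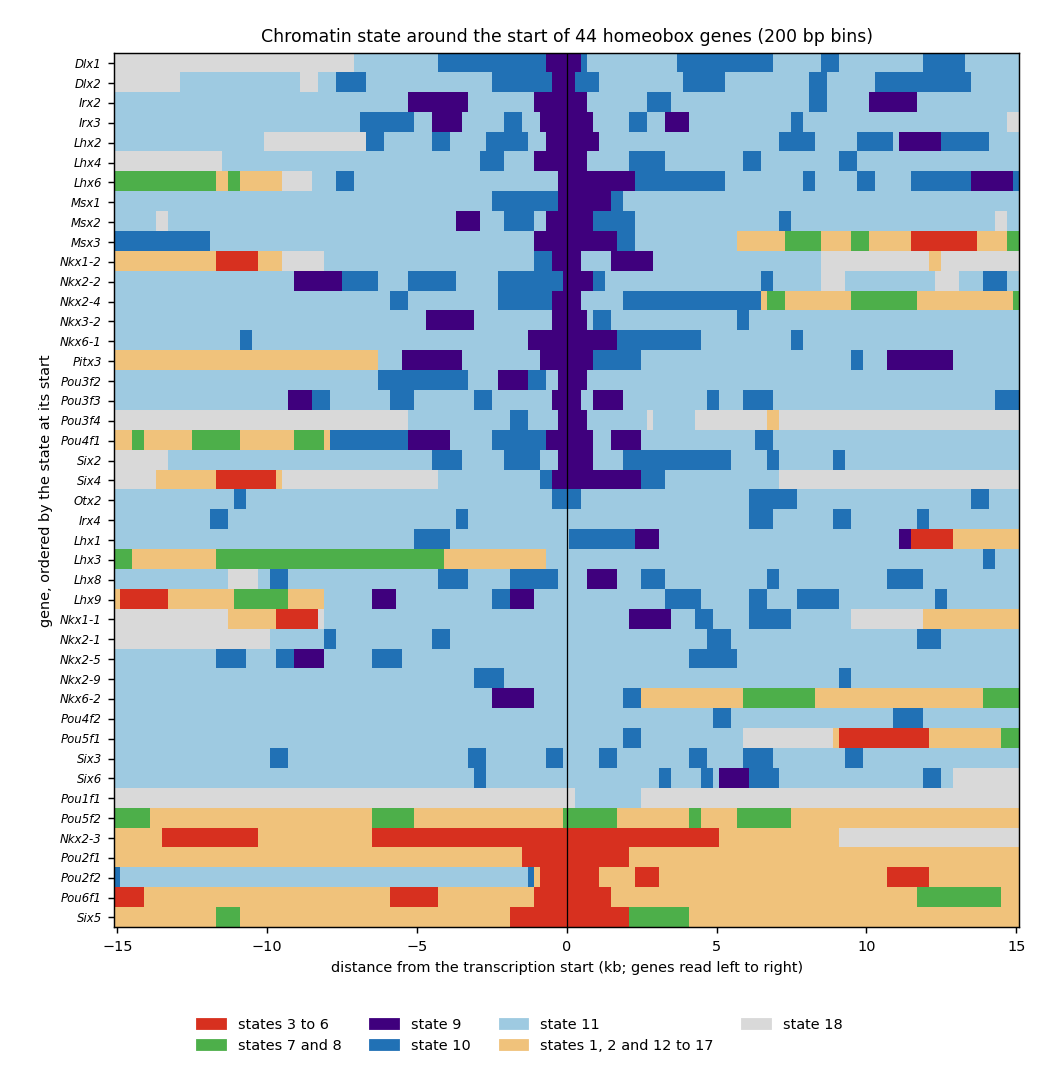
Chromatin state in 200 bp bins from 15 kb upstream to 15 kb downstream of the outermost start (vertical line) for the 44 homeobox genes with a listed start, 1 gene per row, ordered by the state at the start. Purple (state 9) crosses the line in the upper 22 rows, pale blue (state 11) surrounds it in most of the rest, and the lowest 5 rows are red (states 3 to 6).

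Median CpG content of the sequence at the start differed between states. The ratio of observed to expected CpG was computed over 300 bases, from 250 before to 50 after the start. It had a median of 0.778 (0.535 to 1.24) in the 22 members starting in state 9 and of 0.567 (0.241 to 0.972) in the 14 starting in state 11, and the ranges overlapped. All genes starting in state 9 had a median of 0.754, close to the members. All genes starting in state 11 had a median of 0.253, below the members. Pou4f1, a sensory neuron factor, had the most CpG in the window (57). The 14 members starting in state 11 ranged from 4 CpG at Lhx8 to 37 at Nkx1-1.

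**Figure D5:**
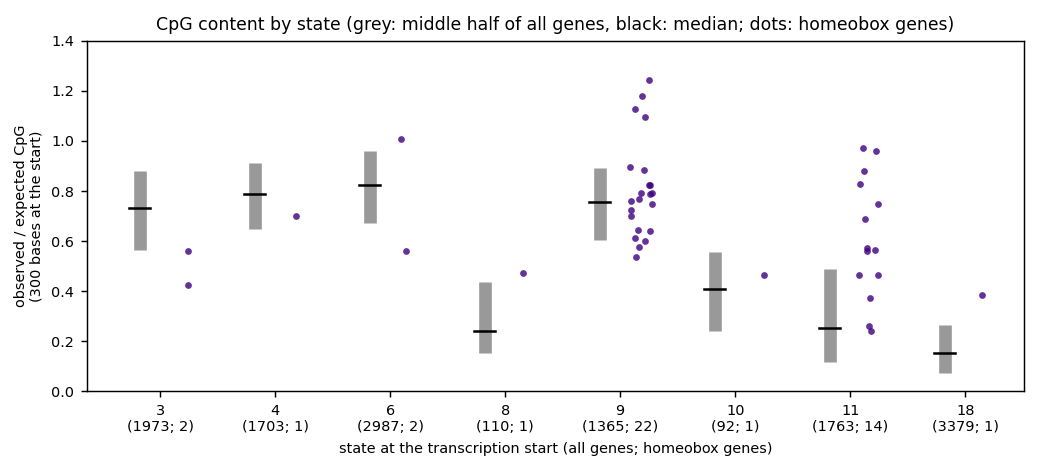
Ratio of observed to expected CpG in the 300 bases at the start, by the state at the start. Grey bars span the quartiles of all genes with black medians, dots are homeobox genes, and the numbers under each state count all genes and homeobox genes. Members in state 9 lie around the median of all genes there (0.754), while those in state 11, all but Lhx8, lie above its median of 0.253.

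A pair of short motifs was searched on both strands of the same 300 bases. The homeodomain core TAAT was in 20 of 44 member promoters (45.5%) and 52.7% of all 17492 promoters. ATGCAAA, the first 7 letters of the octamer bound by POU factors, was in 1 member promoter (Pou6f1, 2.27%) and in 4.17% of all. These are matches of letters in this window and nothing more.

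The exceptions were few, and the clearest was Nkx2-3. Nkx2-3, a factor known for the vessels of spleen and gut lymphoid tissue, lay at chromosome 19, 43612325 to 43615892, with ends in states 6 and 4 and no bin of states 9 to 11 in its window. It sat within an unbroken 11.6 kb block of states 3 to 6, in which state 6 made up 6 kb, state 5 3.2 kb, and states 3 and 4 1.2 kb each. Only 5 of the 15998 such blocks in the map were at least that long, and their median was 1.8 kb. The other 4, looked up after this value was seen, lay at Meis1, at Hoxa9 and Hoxa10, at Adgrg1 and at Gata2. The share of the Nkx2-3 window in states 3 to 6 was 48.7%, a level reached by 8 of 21779 genes, Nkx2-3 included. The nearest coding gene, Slc25a28, was 47.9 kb away.

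Of the POU genes with a listed start, 3 began in states 3 to 6. Pou2f1, which encodes the widely expressed Oct1, started in state 6 within a 3.6 kb block, and its body was mostly in states 17, 8 and 16, with shorter stretches of other states, a 2.4 kb run of state 11 among them. Starts in state 6 made up 17.1% of all, in state 4 9.74% and in state 3 11.3%. Pou6f1 started in state 4 within a block of 2.6 kb, with its other end in state 18. Pou2f2, which encodes the B cell factor Oct2, had its listed start in state 3 inside the gene record, within a block of 2 kb. Just upstream of that start lay a 24.2 kb run of states 10 and 11 (95% state 11), still within the record, whose far end was in state 11. Pou2f2 thus counts among the members with an end in states 9 to 11 although its listed start lay in state 3.

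Six5 started in state 3 within a 4 kb block that also held an end of Dmpk, its neighbour in the myotonic dystrophy locus. Its other end, in state 8, lay where the record overlaps Bhmg1, so the state there cannot be assigned to either gene. Pou5f2, a testis gene, started in state 8, as did 0.629% of all genes, and lay whole within a segment of it of 1.6 kb inside Fam172a, which has ends in states 3 and 11. Pou1f1 had both its start, as did 19.3% of all genes, and its other end in state 18, with a single 2.2 kb segment of state 11 beginning just inside the gene. In all, 6 of the 63 members overlap another protein-coding gene: Nkx6-2, Pitx3, Pou2f1, Pou5f2, Six4 and Six5.

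Around most members, states 3 to 6 lay far from the gene. The nearest bin of states 3 to 6 was a median of 59.6 kb from the member's record (highest 852.8 kb at Irx1), beside a median of 0 kb over all genes. Within the 10 kb window such a bin was present for 12 members (19%), beside 63.1% of all genes. In Lhx1, Lhx9, Msx3 and Pou5f1 the block held the end of a neighbouring gene, which were Aatf, 2310009B15Rik, Tubgcp2 with Zfp511, and Tcf19 with Cchcr1. The nearest coding gene was another member for 16 of 63. Of the 47 others, 31 (66.0%) had an end in states 3 to 6 (47.6% of all genes) and 15 (31.9%) an end in states 9 to 11 (23.9% of all genes).

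The other groups of developmental regulators were counted by the same rules. Of 39 Hox genes 69.2% lay whole within a run, of 41 Sox, Pax and T-box genes 36.6%, and of 40 Fox genes except FoxO 52.5%, beside 71.4% of the 63 members. The median longest run was 55.6 kb for Hox genes, which lie in clusters and share runs, 19.4 kb for Sox, Pax and T-box genes and 10.2 kb for Fox genes, beside 30 kb. Starts in state 9 were 6 of 22 (27.3%), 7 of 29 (24.1%) and 9 of 26 (34.6%), beside 22 of 44 (50%). In the same order, 76.9%, 78.0% and 60% of genes had an end in states 9 to 11, beside 88.9% of members. These differences were not tested. Of 58 homeobox genes outside the 9 families, taken from an incomplete list, 56 (96.6%) had an end in states 9 to 11. Among the 56 were the motor neuron genes Isl1 and Mnx1. Both remaining genes of the list, Hhex and Hlx, which act in early blood and liver, had an end in states 3 to 6. Their windows differed: Hlx had 36.7% in states 9 to 11 and 22.7% in states 3 to 6, and Hhex 0% and 20%. Of the 58, 62.1% lay whole within a run, with a median longest run of 23.9 kb. Among the 41 with a listed start, 16 (39.0%) began in state 9. Differences from the members were not tested here either.

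Genes of proteins that work with these factors were counted by the same rules, beside 47.6% of all genes with an end in states 3 to 6 and 23.9% with one in states 9 to 11. The lists are short, and no difference from all genes is read from them. Of 10 LIM cofactor genes, 6 (60%) had an end in states 3 to 6, among them Ldb2, Lmo4, Ssbp2 and Ssbp3, and 1 (10%), Lmo1, had an end in states 9 to 11. Ldb1, the bridging cofactor, had ends in states 7 and 17 with 34.2% of its window in states 3 to 6, and Lmo2, a core HSC regulator, had ends in states 17 and 16 with 20.4%. Of the 6 Groucho co-repressor genes, 5 had an end in states 3 to 6 and none in states 9 to 11. The 6 partners of sine oculis factors were split: Eya2, Eya3, Dach1 and Dach2 had an end in states 3 to 6, and Eya4, Dach1 and Dach2 an end in states 9 to 11. Pou2af1, the coactivator of Oct1 and Oct2 in B cells, had ends in states 2 and 17.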

How the data were processed

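H3.3 ChIP-seq libraries were made from micrococcal nuclease digested chromatin with a rat monoclonal antibody, per the labels' protocols. Bowtie2, deepTools, MACS2, HOMER and mm10 are named, without versions, per the submitters' processing notes. The deposited files hold a state number per segment, 18 states in 200 bp bins, once dense and once expanded. ChromHMM appears only in the file names, and neither the tracks behind the model nor its version or emissions could be looked up.

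Gene records were those of RefSeq on GRCm38.p6, which is the mm10 assembly. Of 21900 protein-coding genes, 108 starting in the first 3 Mb of a chromosome and 13 outside the map were left out, leaving 21779. Segments were expanded to bins (Python 3.11.15, numpy 2.4.6, pandas 2.3.3). The states at both ends of each record, over the record with 10 kb on each side, and in runs of states 9 to 11 were counted, and the counting was tested on simulated data. Starts came from the RefSeq promoter table, which lists them for 44 members, and the outermost was used. All genes of the fixed lists except Ventx were found. The replicates, the HIRA KO and the inputs have no column in the map, so no test was run. A planned comparison of protein sequences was not made here, and single values of 3 members are not reported here.

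Every member may be named. Described in full were members with an end in states 3 to 6 or none in states 9 to 11, the longest and shortest runs per family, the 5 longest runs, pairs sharing a run, and starts in state 9. The members, lists and classes of states were chosen with earlier results of these data known.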

Additional observations from a re-analysis of the deposited data

How the results depend on the processing

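Each of 6 results (the shares of members with an end in states 9 to 11, with an end in states 3 to 6, with both ends in state 18 and wholly inside a run, and the medians of window share and run length) was recomputed under 41 settings in all. The planned settings were the expanded file, segments of 1 bin merged into the one before, autosomes only, members within 100 kb counted once (54 loci), bins within 1 kb of an end, the start alone, windows of other widths, and runs bridging up to 1 kb. A further setting, chosen after seeing the data, left out the POU genes. In 40 the value stayed within the 95% Wilson interval of the share, or within 1.5 times for medians. That interval treats members as independent, which they are not, so it served as a yardstick only. Several settings could hardly move a value: the expanded file held the same states, and autosomes only kept 62 of the 63 members. The median window share, 86.6%, could not rise by 1.5 times, which would exceed 100%. In the planned settings the share with an end in states 9 to 11 ranged from 84.1% (starts alone, 37 of 44) to 90.5%. That with an end in states 3 to 6 ranged from 6.35% to 11.4%. Without the POU genes these shares were 93.8% and 4.17%. The median window share ranged from 69.7% (20 kb on each side) to 100% (5 kb, or the record alone), and the median run from 30 to 32.6 kb. In that same setting, chosen after seeing the data and without the POU genes, the share with both ends in state 18 was 0%, since Pou1f1 was its 1 member. The dense and expanded files gave the same state in 100% of bins.

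No paired analysis was possible because the map has no column for a library, and for the same reason no replicate was left out. Depth is unknown. Neighbouring members share runs or lie close together, so they are not independent, and gene records mix promoters with 3′ ends.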

Other observations

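Long noncoding or antisense transcripts often lay inside the same runs as the homeobox genes. Of the 45 runs of at least 20 kb that touch a member, 23 (51.1%) held a whole long noncoding or antisense record, beside 202 of 768 (26.3%) such runs touching any protein-coding gene. No test of this difference was made. Among them were Dlx1as in the run of Dlx1 and Dlx2, Dlx6os2 in that of Dlx5 and Dlx6, Lhx1os beside Lhx1, Msx1os beside Msx1, Six3os1 beside Six3, and Pantr2 beside Pou3f3. These were named after their values were seen. Their states are those of the run, so the map does not tell them from the coding gene.

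The 63 members, Hox genes and other listed homeobox genes together are 160 genes, 0.735% of protein-coding genes. Of the 1165 runs of at least 20 kb, 82 (7.04%) touched at least 1 of these 160. Protein-coding genes of any kind were touched by 768 of the 1165 runs (65.9%). Shares of runs and of genes are unlike units, and several homeobox genes can share 1 run. No enrichment is therefore read from 7.04% beside 0.735%.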
